A study of Mus musculus with 6 samples.

Results

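Expressed autosomal long noncoding RNA genes were taken from the deposited gene table of tumour cells sorted from orthotopic mouse pancreatic ductal adenocarcinoma (PDAC), tumours grown in the pancreas. A gene was a member if the table gave it the biotype lincRNA, placed it on chromosomes 1 to 19 and gave it a mean normalised read count of at least 20 over the 6 libraries. The table held 526 lincRNA genes with values, of which 513 were autosomal and 121 were members, of 18180 genes with values in all. The members were chosen by this mean level and not by the difference between the groups, although the mean includes both groups. In 12 members 1 group had a mean under 20, namely KPSC in 6 and KPC in 6. The members of lowest mean were B230208H11Rik at 20.6, 2700046G09Rik at 21.0 and Gm36283 at 21.1, and the closest genes outside the rule were 1110002J07Rik at 19.9, 1110006O24Rik at 19.8 and Miat at 18.7.

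The series compared KPSC with KPC tumour cells, with 3 libraries each, from C57BL/6 tumours collected 10 to 14 days after they were started. The labels do not spell out either name, the alleles they share or the markers of the sort, and they do not say whether the libraries came from separate animals. Their genotype field gives wild type for KPSC and Setd2 knockout for KPC, whereas an added letter usually marks an added allele. The groups keep the names of their titles here, and the genotype field was not used to give any difference a direction.

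Long noncoding RNAs are transcripts that are spliced and capped much as mRNAs are but are not known to encode a protein. Some build nuclear bodies or act on genes near their own site of transcription, and others are precursors whose introns or exons hold small nucleolar RNAs (snoRNAs) or microRNAs. Many start beside a coding gene, from a shared promoter that is read in both directions, and their levels in tumours are often tied to one cell type. Setd2, named in the labels, is the methyltransferase that places trimethylation on lysine 36 of histone H3 in transcribed genes.

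Each library held 14662710 to 17746969 reads over the listed genes. Values are normalised read counts, that is reads divided by 1 size factor per library, and fold changes are KPSC over KPC on the log2(value + 1) scale, which understates changes of low genes. Setd2 stood at 859, 908 and 1042 in KPSC replicates 1 to 3, against 1338, 1099 and 1046 in KPC, with a log2 fold change of -0.31 short of the threshold (adjusted p = 0.148 by limma). KPSC replicate 3 stood apart. Over all genes with a mean of at least 20, its correlations with KPSC replicates 1 and 2 were 0.891 and 0.903, against 0.988 between those replicates. Over the members they were 0.914 and 0.937, against 0.973. Of the markers of cells that the sort could hold, 5 of 6 epithelial genes were higher in KPSC, where their summed value was 101153 to 111957, against 48080 to 61877 in KPC. Of 6 leukocyte markers 2 were lower in KPSC in limma and in edgeR, and 4 were lower in DESeq2. At an unadjusted p under 0.05 in limma 4 were lower, and none was higher by any of these. Their summed value was 11194 to 15315 in KPSC, against 16519 to 19100 in KPC. Of 7 fibroblast markers 1 was lower, with sums of 110220 to 218098 in KPSC and 143967 to 160502 in KPC, and 1 of 4 neural markers was higher, with Sox10 among those at 0 in at least 1 library. None of 10 acinar, 7 islet or 6 endothelial markers passed in limma, edgeR or DESeq2, or had an unadjusted p under 0.05 in limma; acinar genes took 0.299% to 14.2% of reads in KPSC and 0.731% to 5.71% in KPC. In bulk RNA, fewer cells of a type and less RNA per cell cannot be told apart.

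The members were short and low beside coding genes. Their median level was 50.3 normalised reads, against 525 for autosomal coding genes with a mean of at least 20, and 28.4 against 111 when levels were taken per kilobase. The median transcript length was 2265 bases for members and 4381 bases for those coding genes, and the median number of merged exons of a member was 3, with 12 members of a single exon. By level, 59 members lay between 20 and 50 normalised reads, 22 between 50 and 100, 33 between 100 and 1000, and 7 at 1000 or more. Per kilobase, the most abundant member was AW112010 at 1939, an RNA induced in immune cells by interferon. It was followed by H19 at 1221, Epb41l4aos at 933, Malat1 at 897 and 2900097C17Rik at 717 normalised reads per kilobase. The level of H19 rests on KPSC replicate 3: over the other 5 libraries it was 374 normalised reads per kilobase, rank 8 among the members, in a comparison added after the data were seen.

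Of the 121 members, 16 passed the test (13.2%), against 14.4% of all genes tested and 17.3% of autosomal coding genes with a mean of at least 20. In KPSC 8 were higher and 8 lower (6.61% each), against 7.61% and 6.76% of all genes tested and 9.2% and 8.13% of those coding genes. Of the 244 tested autosomal lincRNA genes below the rule's minimum, 9 passed (3.69%). Of the 12 members with 1 group mean under 20, 4 passed, and of the other 109, 12 passed. The 4 were 3300005D01Rik, 9230102K24Rik, A330074K22Rik and Halr1, and each met the rule's minimum through the group in which it was higher. The call rate of the members followed their level: 3 of 59 members between 20 and 50 passed (5.08%), against 12.4% of coding genes in that range, and 13 of 62 at 50 or more passed (21.0%), against 17.7% of coding genes. The groups did not overlap in 35 members (28.9%), against 34.8% of all genes tested and 39.1% of those coding genes. KPSC was above KPC in 18 of them and below in 17, where 17.6% and 17.2% of all genes and 20.2% and 18.9% of coding genes were. A log2 fold change of at least 1 in either direction was reached by 14 members (11.6%), against 12.1% of all genes tested and 8.81% of coding genes. The median log2 fold change was -0.07 over the members and 0.01 over all genes tested, with 55 members above 0 and 66 below. In the range from 20 to 200 normalised reads, replicates varied alike: the median standard deviation within groups was 0.34 on the log2 scale for 100 members and 0.34 for 3298 coding genes. The median size of the log2 fold change in that range was 0.33 for members and 0.40 for coding genes.

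**Figure D1:**
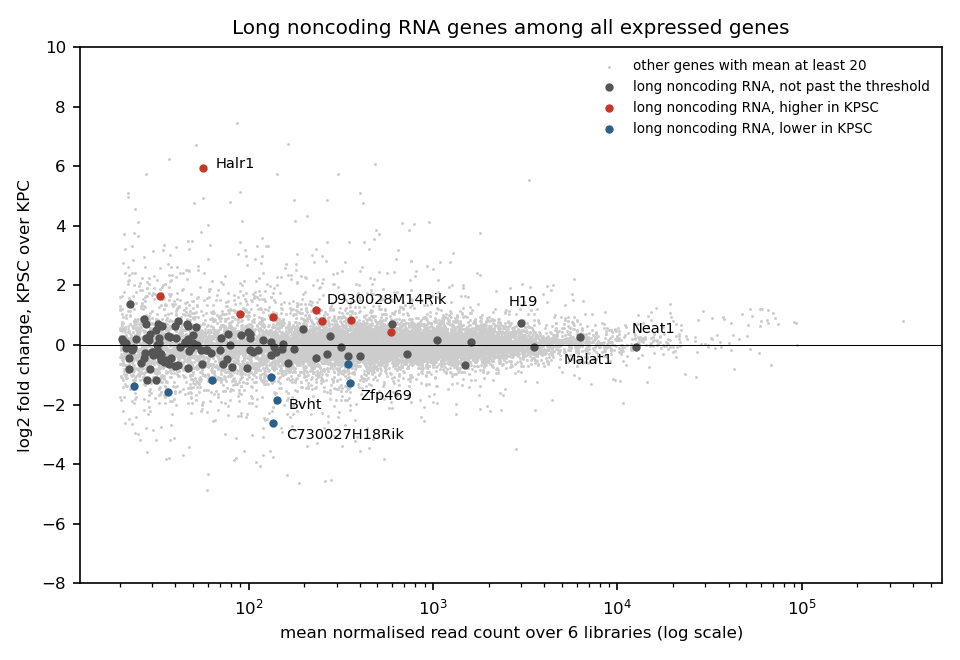
Log2 fold change of KPSC over KPC against the mean normalised read count over 6 libraries (log axis) for the 121 long noncoding RNA genes and, in light grey, all other genes with a mean of at least 20. The 8 members higher in KPSC are red and the 8 lower are blue; Halr1 at 5.93 and C730027H18Rik at -2.61 bound the range, and the members with the most reads, Neat1 and Malat1, sit near 0.

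Halr1, a long noncoding RNA beside the HoxA cluster of homeobox genes that in mouse embryonic stem cells acts on those genes, showed the widest gap. It lies on chromosome 6 (52102949 to 52113684, plus strand, mm10) and has 5 merged exons. Its normalised read counts were 133, 133 and 69.95 in KPSC replicates 1 to 3, against 0, 1.68 and 1.08 in KPC. All KPSC libraries held it and KPC libraries were at or near 0, with 310 reads in KPSC and 3 in KPC. Halr1 therefore met the rule's minimum mean through KPSC alone. The ratio of normalised reads was 115, with a 95% exact interval of 39.1 to 562 that covers counting error only. The log2 fold change was 5.93 (SE 0.50; adjusted p = 0.000476 by limma) and lay between 5.52 and 6.24 when each library was left out in turn. With KPC this close to 0 its size depends on the constant added before the log: it was 4.26 with a pseudocount of 5, 6.49 with one of 0.5 and 6.90 in DESeq2.

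The HoxA genes beside Halr1 encode transcription factors that set positional identity. Hoxa3, chosen after its values were seen, stood at 192, 234 and 212 in KPSC, against 109, 82.4 and 81.9 in KPC, with a log2 fold change of 1.22 (adjusted p = 0.00562 by limma). Hoxa5, chosen likewise, missed the threshold at a log2 fold change of 0.90 (adjusted p = 0.0513 by limma). Of 13 tested noncoding RNAs beside homeobox or other transcription factor genes, Halr1 was the one that passed, where 14.4% of all genes tested did. The median log2 fold change of the 13 was 0.07.

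The promoter window of Halr1 is shown because it holds the start of the member with the highest fold change. It runs 250 bases before to 50 bases after the start in RefSeq (GRCm38.p6, chr6:52102699-52102998, plus strand, written 5′ to 3′), with each CG in capitals.
Halr1: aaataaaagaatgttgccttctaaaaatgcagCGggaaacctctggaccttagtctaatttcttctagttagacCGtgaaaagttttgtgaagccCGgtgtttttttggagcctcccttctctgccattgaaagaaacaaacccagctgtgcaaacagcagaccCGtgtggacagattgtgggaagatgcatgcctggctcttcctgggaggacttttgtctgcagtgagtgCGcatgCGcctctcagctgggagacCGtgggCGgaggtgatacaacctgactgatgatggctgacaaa
It holds 8 CG, a ratio of observed to expected CG of 0.449, and the letters GGGCGG, which 36.0% of the 31396 autosomal windows hold on either strand.

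The other 7 members higher in KPSC had fold changes below those of Halr1. D930028M14Rik had 320, 346 and 301 normalised reads in KPSC, against 152, 130 and 144 in KPC. Its replicates lay close together and the groups stood apart, with a log2 fold change of 1.18 (SE 0.14; adjusted p = 0.0019 by limma). It lies on chromosome 7 (25152457 to 25156627, plus strand) inside the span of Pou2f2, which is on the other strand and encodes a transcription factor of B cells. Whether counting used strand is not stated, so reads of this pair may be shared. Pou2f2 moved the opposite way, with 126, 143 and 98.5 normalised reads in KPSC, against 360, 269 and 312 in KPC (log2 fold change -1.36; adjusted p = 0.00406 by limma). Gm10451 stood at 334, 296 and 330 in KPSC, against 175, 188 and 180 in KPC, and had a log2 fold change of 0.82 (SE 0.12; adjusted p = 0.0057 by limma). Halr1, D930028M14Rik and Gm10451 passed whichever library was left out. Gm10451 did not pass when values were scaled to library size alone (adjusted p = 0.0931 by limma).

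Less firmly placed were 3300005D01Rik, 4930461G14Rik, Gm19589, Snhg18 and Tmem250-ps. 3300005D01Rik had 50.7, 64.8 and 34.5 normalised reads in KPSC, against 14.6, 25.2 and 8.63 in KPC, a log2 fold change of 1.65 (SE 0.44; adjusted p = 0.046 by limma). 4930461G14Rik had 141, 108 and 116 in KPSC, against 57.3, 75.7 and 44.2 in KPC, and Gm19589 had 192, 190 and 153 in KPSC, against 78.2, 109 and 93.8 in KPC. Their log2 fold changes were 1.06 and 0.92 (adjusted p = 0.0321 and 0.0206 by limma), and in all 3 genes every KPSC library lay above every KPC library. Each lost the call without KPC replicate 1, without KPC replicate 3, without KPSC replicate 1 and without KPSC replicate 2, with limma's adjusted p at most 0.144, 0.109 and 0.0786. Tmem250-ps, named as a pseudogene, had 709, 705 and 624 in KPSC, against 463, 479 and 577 in KPC, and passed narrowly at a log2 fold change of 0.43 (adjusted p = 0.0496 by limma). It lost the call without KPC replicate 1 or 2 and without KPSC replicate 1 or 2, with an adjusted p in limma of up to 0.15, and with TMM scaling and edgeR as well.

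Snhg18, a host of snoRNAs, starts on chromosome 15 (32240565 to 32244662, minus strand) 148 bases from the start of Sema5a on the other strand, which encodes a semaphorin, a guidance protein of the cell surface. Snhg18 had 555, 502 and 338 normalised reads in KPSC, against 198, 284 and 284 in KPC, a log2 fold change of 0.85 (SE 0.22; adjusted p = 0.0421 by limma). Sema5a had 729, 760 and 670 in KPSC, against 409, 246 and 294 in KPC, a log2 fold change of 1.21 (adjusted p = 0.00528 by limma) that held whichever library was left out. In both genes every KPSC library was above every KPC library, with KPSC replicate 3 the nearest to KPC for Snhg18. Snhg18 lost the call without any single library other than KPSC replicate 3, with limma's adjusted p at 0.0793 to 0.128. Snord123, the snoRNA listed inside it, did not pass, at 6.04, 8.94 and 13.0 normalised reads in KPSC and 5.46, 4.21 and 6.47 in KPC (adjusted p = 0.385 by limma).

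The window of Snhg18 is shown because it also holds the start of Sema5a (RefSeq, GRCm38.p6, chr15:32244613-32244912, minus strand, 5′ to 3′, each CG in capitals).
Snhg18: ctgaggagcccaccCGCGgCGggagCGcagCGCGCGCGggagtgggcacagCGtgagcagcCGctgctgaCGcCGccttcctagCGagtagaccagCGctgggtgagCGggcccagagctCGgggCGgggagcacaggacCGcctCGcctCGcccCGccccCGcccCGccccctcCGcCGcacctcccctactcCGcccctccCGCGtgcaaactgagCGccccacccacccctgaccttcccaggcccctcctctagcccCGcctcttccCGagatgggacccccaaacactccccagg
It holds 31 CG against 8 in the window of Halr1, a ratio of observed to expected CG of 0.769, and GGGCGG.

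Of the 8 members lower in KPSC, C730027H18Rik had the lowest fold change. It lies on chromosome 10 (71168737 to 71182040, minus strand) and had 32.6, 43.6 and 37.1 normalised reads in KPSC, against 220, 270 and 215 in KPC. The replicates of each group lay together and far from the other group (log2 fold change -2.61, SE 0.21, adjusted p = 0.000383 by limma). C730027H18Rik overlaps another listed gene, 1700113B09Rik, and may share reads with it. Its neighbour Bicc1, at 9037 bases, encodes an RNA-binding protein and fell with it, to 802, 931 and 782 in KPSC, against 3016, 2704 and 2412 in KPC (log2 fold change -1.69; adjusted p = 0.000197 by limma). Bvht, known as Braveheart, an RNA that mouse embryonic stem cells need to form heart muscle, had 44.7, 60.3 and 76.9 in KPSC, against 167, 289 and 212 in KPC. Its highest KPSC library was below its lowest KPC library, and the log2 fold change was -1.86 (SE 0.28; adjusted p = 0.0053 by limma). Pcyox1l, the nearest coding gene at 49365 bases, was lower as well, with a log2 fold change of -0.61 (adjusted p = 0.0227 by limma), a call lost without any 1 KPC library or KPSC replicate 2 (limma's adjusted p up to 0.0773). Zfp469, a single-exon lincRNA in the table under the symbol of a zinc finger protein, had 151, 250 and 225 in KPSC, against 468, 531 and 494 in KPC (log2 fold change -1.28, SE 0.19; adjusted p = 0.0053 by limma). In GENCODE it lies within a coding gene of the same strand, Gm20388, so the reads of the pair cannot be told apart. C730027H18Rik, Bvht and Zfp469 passed whichever library was left out.

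The other 5 members lower in KPSC were A330074K22Rik, 9230102K24Rik, Gm19710, Mirt1 and 5031425E22Rik. A330074K22Rik had 16.9, 13.4 and 22.5 normalised reads in KPSC, against 82.8, 46.3 and 38.8 in KPC (log2 fold change -1.57; adjusted p = 0.0321 by limma), and 9230102K24Rik had 12.1, 15.6 and 11.2 in KPSC, against 35.5, 32.0 and 37.7 in KPC (log2 fold change -1.38; adjusted p = 0.0248 by limma). Gm19710 had 26.6, 40.2 and 51.0 in KPSC, against 95.5, 88.3 and 78.7 in KPC (log2 fold change -1.18; adjusted p = 0.0343 by limma), and its span holds part of Hax1 and Ubap2l. Mirt1, known from the infarcted mouse heart, had 107, 60.3 and 89.8 in KPSC, against 136, 218 and 180 in KPC (log2 fold change -1.06, adjusted p = 0.0395 by limma). Its nearest coding gene Smndc1, at 50639 bases, was higher in KPSC (log2 fold change 0.39, adjusted p = 0.0280 by limma). That call was lost without any 1 KPC library or without KPSC replicate 1 or 3 (limma's adjusted p up to 0.0899). 5031425E22Rik, which starts beside the chromatin gene Kmt2e, had 273, 332 and 210 in KPSC, against 399, 397 and 457 in KPC (log2 fold change -0.64; adjusted p = 0.0493 by limma). In these 5 genes the groups did not overlap, but each lost the call without KPC replicate 1, 2 or 3, with limma's adjusted p at most 0.101, 0.0859, 0.111, 0.134 and 0.154 over the libraries left out in turn. Without KPSC replicate 1 all of them but Mirt1 lost it, without KPSC replicate 2 A330074K22Rik, Gm19710 and Mirt1 did, and without KPSC replicate 3 5031425E22Rik did (adjusted p = 0.0517 by limma).

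The window of Mirt1 is shown as a start poor in CG among the lower members (RefSeq, GRCm38.p6, chr19:53464747-53465046, minus strand, 5′ to 3′, each CG in capitals).
Mirt1: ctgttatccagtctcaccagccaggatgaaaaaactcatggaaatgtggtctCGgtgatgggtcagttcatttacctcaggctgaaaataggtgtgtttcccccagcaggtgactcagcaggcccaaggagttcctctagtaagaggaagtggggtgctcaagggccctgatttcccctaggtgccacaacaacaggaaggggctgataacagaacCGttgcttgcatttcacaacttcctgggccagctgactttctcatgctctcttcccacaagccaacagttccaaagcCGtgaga
It holds 3 CG, a ratio of observed to expected CG of 0.152, and TGANTCA, the letters bound by AP-1 factors, which 7.84% of all autosomal windows hold on either strand.

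**Figure D2:**
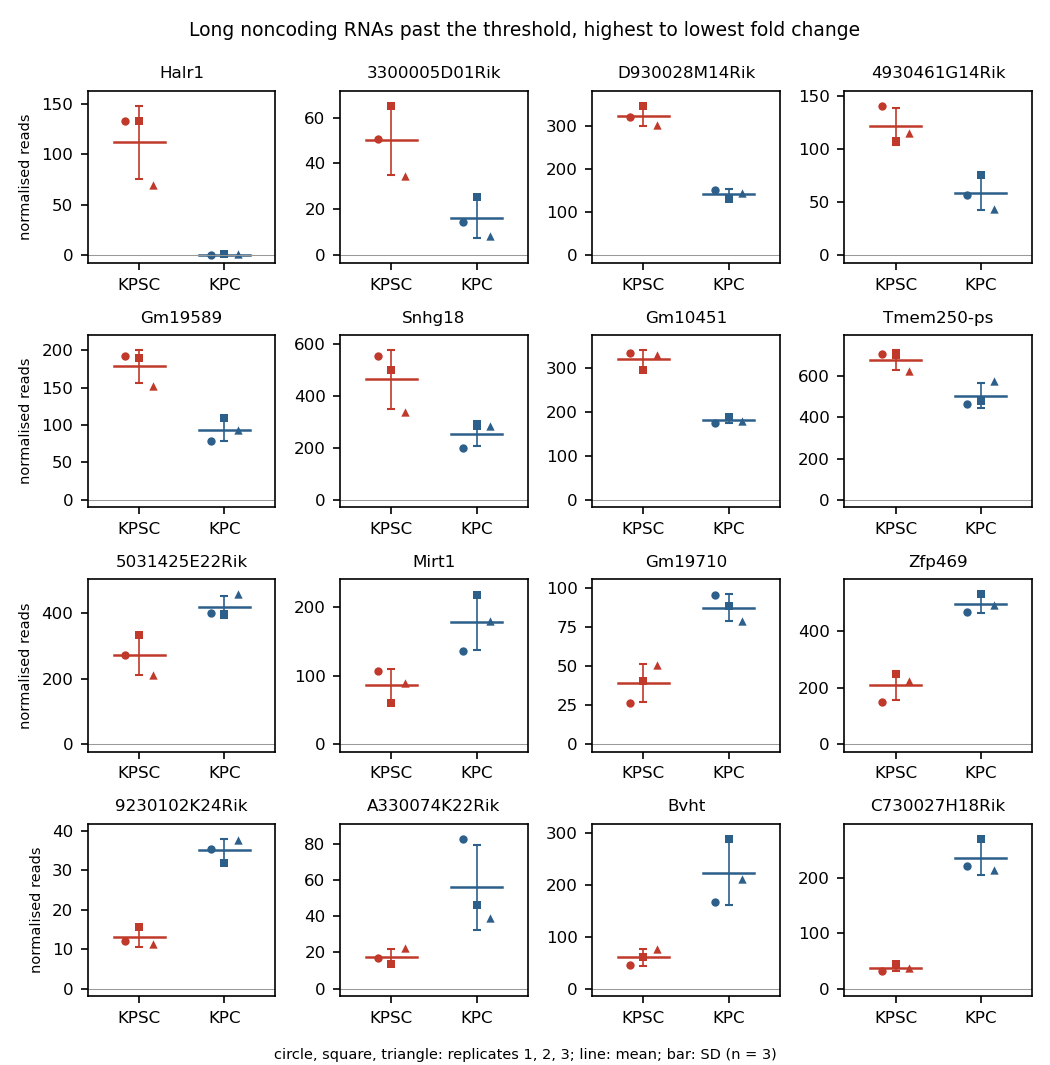
Normalised read counts of the 16 long noncoding RNA genes past the threshold in each library, KPSC left of KPC, with the mean and SD of 3 libraries; panels run from the highest to the lowest log2 fold change. In every panel the KPSC points lie wholly above or wholly below the KPC points, and Halr1 is near 0 in all 3 KPC libraries.

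On recovered reads edgeR called 8 members higher and 9 lower, where it called 17.3% of all genes it tested, and DESeq2 called 9 and 9, where it called 19.6%. With the mean log2 level of the leukocyte markers as a covariate, C730027H18Rik and Halr1 kept their calls and the other 14 lost theirs. The summed value of the same markers did not overlap between the groups, so the covariate and the group may share much of their variation. The part of leukocyte RNA in these differences was not separated. The sign of all 16 fold changes was the same in each of the 18 alternatives. The authors' deposited table called 20 members (16.5%, against 16.2% of all genes with values), namely these 16 and 4632404H12Rik, AW112010, Mir17hg and Snhg6.

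The nuclear body RNAs Neat1 and Malat1 were the members with the most reads and did not pass the test. Neat1 took 19.2% to 36.6% of the members' reads in KPSC and 31.2% to 35.6% in KPC, and Malat1 took 14.1% to 17.9% in KPSC and 10.4% to 17.5% in KPC. Neat1, the scaffold of paraspeckles, had 12389, 15023 and 9489 normalised reads in KPSC, against 11659, 12511 and 14090 in KPC, with a log2 fold change of -0.07 (SE 0.20). Malat1, an RNA of nuclear speckles, had 6732, 6581 and 6976 in KPSC, against 6153, 7006 and 4134 in KPC, with a log2 fold change of 0.26 (SE 0.19). In both the groups overlapped. 2900097C17Rik, the mouse Norad, which binds Pumilio proteins, had 3588, 3505 and 3239 in KPSC, against 3773, 3439 and 3599 in KPC, a log2 fold change of -0.07 (SE 0.09) with little spread in either group. Pvt1, the neighbour of Myc, had a log2 fold change of -0.15 (adjusted p = 0.652 by limma), and Lncpint, a target of p53, one of -0.11 (adjusted p = 0.872 by limma). A list headed p53 and growth also held RNAs known for other roles, such as Bvht. Of its 14 tested RNAs, 2 were higher and 2 lower in KPSC, where 7.61% and 6.76% of all genes tested were. Among those that passed, Bvht was the single member, and the others were the noncoding RNAs Crnde at 0.99, Gas5 at 0.61 and 1810026B05Rik at -0.53 in log2 fold change. Each of these 3 lost its call in limma without KPC replicate 2 or 3 and without KPSC replicate 1 or 2, with adjusted p at most 0.0774 for Crnde, 0.112 for Gas5 and 0.149 for 1810026B05Rik. Gas5 also lost it without KPC replicate 1 and 1810026B05Rik without KPSC replicate 3.

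Imprinted members varied widely between replicates, and 1 KPSC library held the highest values of H19 and Meg3. H19, a maternally expressed fetal RNA, had 727, 591 and 13425 normalised reads in KPSC, against 926, 995 and 1363 in KPC. KPSC replicate 3 stood far above all other libraries, while the other KPSC libraries lay below all of KPC. Over all libraries its log2 fold change was 0.73 (SE 1.05; adjusted p = 0.707 by limma), and without KPSC replicate 3 it was -0.72 (adjusted p = 0.0218 by limma), a reversal that passed the threshold. H19 took 27.2% of the members' reads in KPSC replicate 3 and 1.44% to 3.44% in the other libraries. Meg3, expressed from the maternal copy at the Dlk1 locus, had 795, 1227 and 3423 in KPSC, against 1567, 1454 and 1229 in KPC, so that the same library was highest and the groups overlapped. Mirg, from the same locus, had 36.2, 38.0 and 82.9 in KPSC, against 48.2, 84.95 and 39.9 in KPC. Rian, which shares the locus but is no member by its biotype, had 469, 512 and 1551 in KPSC, against 609, 804 and 501 in KPC. The coding neighbours, chosen after their values were seen, were at the same extreme: Igf2 had 0, 0 and 40.6 in KPSC, against 0, 1.68 and 1.08 in KPC, and Dlk1 had 6.04, 10.1 and 25.04 in KPSC, against 3.64, 2.52 and 2.16 in KPC. In KPSC replicate 3 the summed value of fibroblast markers was 218098, the highest of the 6 libraries, and acinar genes took 0.299% of its reads, the lowest; the part of either in these levels was not tested. The list of imprinted RNAs had 10 tested genes, among them the coding gene Mcts2 and the X-linked Jpx. Kcnq1ot1, no member, was the one that passed, where 14.4% of all genes tested did. It stood at 134, 140 and 149 in KPSC, against 349, 306 and 246 in KPC, a log2 fold change of -1.07 (adjusted p = 0.00608 by limma).

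Of 18 tested host genes of snoRNAs, 2 were higher (Snhg18 and Gas5, which is no member) and none was lower in limma. Of all genes tested, 7.61% were higher and 6.76% lower. The median log2 fold change of these host genes was 0.15. edgeR and DESeq2 each called 3 higher, Snhg6 among them, and none lower, and at an unadjusted p under 0.05 limma had 4 higher and 1 lower. Both limma calls were lost without any 1 KPC library or without KPSC replicate 1 or 2, at an adjusted p of up to 0.128 for Snhg18 and 0.112 for Gas5. Snhg6 had 825, 775 and 605 normalised reads in KPSC, against 339, 524 and 507 in KPC. Every KPSC library was higher, and the log2 fold change of 0.70 just missed the threshold (adjusted p = 0.0502 by limma; without KPSC replicate 3, 0.0157). Epb41l4aos had 406, 421 and 231 in KPSC, against 390, 416 and 542 in KPC, Snhg20 had 681, 775 and 487 in KPSC, against 644, 741 and 1002 in KPC, and Snhg12 had 380, 325 and 224 in KPSC, against 252, 345 and 371 in KPC. In these 3 KPSC replicate 3 was the lowest library, the groups overlapped and none passed. Snhg10 had 31.4, 32.4 and 25.9 in KPSC, against 22.7, 24.4 and 29.1 in KPC, which overlapped too.

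Host genes of microRNAs were 9 of the members, by a mature microRNA in their span on the same strand in RefSeq. A separate list of microRNA hosts and related RNAs had 11 tested genes, of which none was higher in limma, edgeR or DESeq2 (1 at an unadjusted p under 0.05 in limma). Mirt1, which holds no mature microRNA in RefSeq on its strand, was the one that was lower. Of all genes tested, 7.61% were higher and 6.76% lower in limma. Mirt1 lost its call without KPC replicate 1, 2 or 3 or KPSC replicate 2 (limma's adjusted p up to 0.134). Mir17hg, the precursor of the growth-promoting miR-17 to miR-92 cluster, had 216, 219 and 268 normalised reads in KPSC, against 166, 177 and 140 in KPC. All KPSC libraries lay above all KPC libraries, and the log2 fold change of 0.54 missed the threshold (SE 0.16; adjusted p = 0.0655 by limma; adjusted p = 0.0486 in the authors' deposited table). Mature microRNAs were not measured here, so these values are of the host RNA alone. Mir155hg, the precursor of an immune microRNA, had 56.8, 54.7 and 57.9 in KPSC, against 49.1, 80.7 and 77.6 in KPC, in which the groups overlapped.

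The mature microRNAs of Mir17hg and H19 are shown to say what these hosts would yield, since the small RNAs themselves were not measured (RefSeq, GRCm38.p6, 5′ to 3′, with the seed, bases 2 to 8, in capitals).
mmu-miR-17-5p: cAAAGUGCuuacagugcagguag
mmu-miR-20a-5p: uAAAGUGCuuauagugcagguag
mmu-miR-18a-5p: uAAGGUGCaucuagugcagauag
mmu-miR-19a-3p: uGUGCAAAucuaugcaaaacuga
mmu-miR-19b-3p: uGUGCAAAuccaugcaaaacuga
mmu-miR-92a-3p: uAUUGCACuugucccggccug
mmu-miR-675-5p: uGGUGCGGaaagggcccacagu
mmu-miR-675-3p: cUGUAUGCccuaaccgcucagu
Within Mir17hg, miR-17-5p and miR-20a-5p share the seed AAAGUGC and miR-19a-3p and miR-19b-3p share GUGCAAA, and the seeds of miR-18a-5p and miR-92a-3p are their own among those shown. The microRNA of H19, miR-675, lies in an exon of the host and shares no seed with them.

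In limma none of the immune-related members passed, where 14.4% of all genes tested did. AW112010 had 830, 1079 and 1605 normalised reads in KPSC, against 1523, 1817 and 2104 in KPC, with KPSC replicate 3 overlapping KPC. Its log2 fold change was -0.67 (SE 0.23; adjusted p = 0.0984 by limma), and without KPSC replicate 3 it passed at -0.93 (adjusted p = 0.00536 by limma), while the authors' deposited table gave it an adjusted p of 0.0345. Ptgs2os2, an RNA that macrophages induce beside the cyclooxygenase gene Ptgs2, had 59.2, 51.4 and 57.9 in KPSC, against 38.2, 52.1 and 22.6 in KPC, which overlapped. Of 9 tested immune RNAs none passed in limma, where 1 was higher and 1 lower at an unadjusted p under 0.05; edgeR called none and DESeq2 called AW112010 lower.

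**Figure D3:**
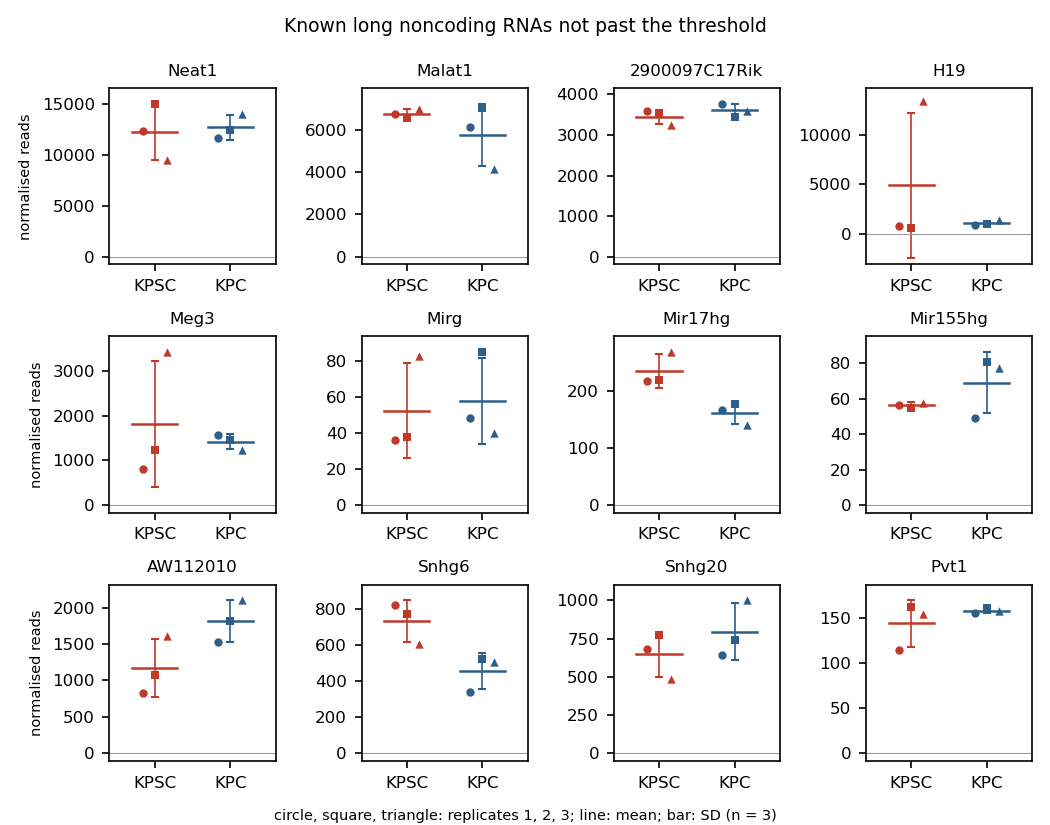
Normalised read counts of 12 known long noncoding RNA genes that did not pass the threshold in each library, KPSC left of KPC, with the mean and SD of 3 libraries. H19 and Meg3 are set apart by KPSC replicate 3, at 13425 and 3423, while 2900097C17Rik varied little in either group.

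Members that share a start region with a coding gene mostly had a fold change of the same sign as that gene, although 4 of these members and 7 of the coding genes passed the test. For 27 members on 16 chromosomes the start lay within 2 kb of the start of a coding gene on the other strand, at a distance of 8 to 1589 bases, and in 25 of these pairs (92.6%) the fold changes had the same sign. Both were above 0 in 14 pairs and below 0 in 11. Across the pairs Pearson's r of the fold changes was 0.73, which describes these 6 libraries, since all pairs share them. For the 94 other members and their nearest coding gene the share was 50 pairs (53.2%), with an r of 0.08. Among 907 head-to-head pairs of coding genes 609 (67.1%) had the same sign, with an r of 0.41. Among 11689 other neighbouring coding pairs 6803 (58.2%) did, with an r of 0.16. In these coding pairs both genes had a mean of at least 20, a minimum not set for the coding partners of members. The partner of F630040K05Rik, 1600014C23Rik, had a mean of 3.46 and counts among the pairs of like sign. This grouping by position was chosen after the data were seen.

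The pairs were mostly of small fold changes. Of the 27 members 4 passed the test, of the partners 7 did, and Snhg18 with Sema5a was the 1 pair in which both passed. All 7 partners that passed had the sign of their member. Among them Dele1, Ube2q1 and Dtx3 were lower, and Sgms1, Edem3 and Sema5a were higher in KPSC. Of these, Dele1, Sgms1 and Sema5a passed whichever library was left out; Ube2q1 lost its call without any 1 of the 6, Dtx3 passed only without KPSC replicate 2 or 3, and Edem3 passed only without KPC replicate 1 or KPSC replicate 3, with limma's adjusted p at most 0.119, 0.0802 and 0.0786 over the libraries left out. The 2 pairs of unlike sign were A330074K22Rik with Gse1, at log2 fold changes of -1.57 and 0.01, and 9330104G04Rik with Dact3, at -0.64 and 0.31.

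Reads of an overlapping pair cannot be told apart where counting ignored strand, and strand use is not given in the sources used here. In 9 pairs the spans overlapped and all 9 had the same sign. In the 18 pairs whose spans did not overlap, 16 did (88.9%), with an r of 0.65. With starts within 500 bases 19 of 21 pairs had the same sign. Leaving out each library gave 20 to 24 of 27 pairs, scaling to library size 23, the acinar covariate 19 and the leukocyte covariate 16.

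The start regions of these members were rich in CG. A RefSeq window whose start lay within 100 bases of the table's start was found for 78 members. The ratio of observed to expected CG was at least 0.6 in 13 of 18 head-to-head members (72.2%) and in 19 of 60 other members (31.7%), against 36.4% of all autosomal windows. The letters GGGCGG stood in 72.2% of head-to-head and 35.0% of other members on either strand, against 36.0% of all windows. TATAAA was held by 1 of the 18 (5.56%) and by 18.3% of the other members, against 13.6% of all windows. These are counts of letters in a window and do not mark a bound site.

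**Figure D4:**
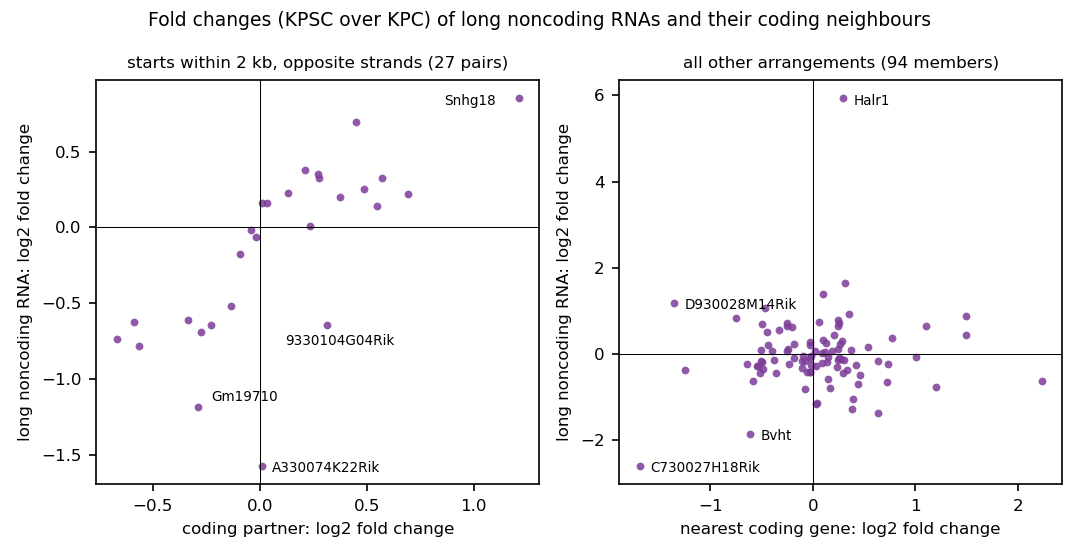
Log2 fold changes (KPSC over KPC) of long noncoding RNA genes on the vertical axis against their coding neighbour on the horizontal axis. Left, the 27 pairs that start within 2 kb of each other on opposite strands, of which 25 lie in the quadrants of equal sign; right, the other 94 members with their nearest coding gene, which spread over all quadrants. The vertical scales differ.

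The members together took about the same share of reads in both groups. They held 0.186%, 0.242% and 0.336% of listed reads in KPSC replicates 1 to 3, against 0.259%, 0.269% and 0.250% in KPC. KPSC libraries lay on both sides of KPC, with means of 0.255% ± 0.076 and 0.259% ± 0.00929 (SD, n = 3 each; exact two-sided permutation p = 0.9, where 0.1 is the smallest that 3 against 3 allows). Without Neat1, Malat1 and H19 the means were 0.111% ± 0.0224 in KPSC and 0.129% ± 0.00257 in KPC (SD, n = 3 each; exact two-sided permutation p = 0.4).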

How the data were processed

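Bulk RNA of 3 KPSC and 3 KPC libraries was prepared with a TruSeq kit from 5 µg of total RNA, per the labels. The submitters' processing notes name mm10 and CASAVA 1.7 (aligner, counter, annotation and strand use: not given in the sources used here). The authors deposited a signal per gene and library that behaves as a read count over a size factor; whole reads were recovered for 100% of values within 0.01. Where p-values of the authors' deposited table are printed, they are named as such. Rows without values (7265 of 25450) and 5 with symbols that had lost letters were left out. Gene IDs were matched to GENCODE M21.

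limma 3.58.1 in R 4.3.3 (eBayes with trend) tested KPSC against KPC on log2(value + 1) over the 16737 genes that reached a value of 1 in 3 or more libraries. P-values were adjusted over all of these by Benjamini-Hochberg, and 2406 genes passed 0.05. A count test is no main test for normalised values: edgeR 4.0.16 on recovered reads called 2474 of 14293 genes and DESeq2 1.42.0 called 3057 of 15587. The script was tested on simulated data. Other alternatives were pseudocounts of 0.5 and 5, other filters and scalings, limma without a trend, a replicate block, marker covariates and leaving out each library. The labels name no separate animals, so a p-value speaks of the spread among these libraries only, which may be technical. Every pair of libraries differed by more than sampling noise (chi-square over degrees of freedom at least 38.7).

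Members and lists were chosen with earlier results of these data known. Named genes are members on the lists, the 10 highest and 10 lowest of those past the threshold, the 5 highest per kilobase, those at the rule's edge, their nearest coding genes and Setd2; some of these are not reported here. Sequences are RefSeq's (GRCm38.p6), with 102 members matched. Python 3.11.15, pandas 2.3.3 and matplotlib 3.10.9 gave tables and figures.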

Additional observations from a re-analysis of the deposited data

How the results depend on the processing

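The counts of members higher and lower in KPSC, 8 and 8, stayed within 1.5 times under other pseudocounts, filters, TMM scaling, edgeR, DESeq2, limma without a trend and the acinar covariate. Scaling to library size alone left 2 higher and 7 lower, with a median log2 fold change of -0.27 over members and -0.18 over all genes tested. The leukocyte covariate left 2 higher and 1 lower, with a members' median of -0.21. Leaving out each library gave 3 to 10 higher, 3 to 12 lower, a median of -0.12 to 0.02 and a difference in the share of reads (KPSC minus KPC) of -0.0455 to 0.0297 percentage points; its sign is not settled. H19 reversed to -0.72 without KPSC replicate 3. The cause of these changes was not tested.

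The replicate block gave 3 higher and 4 lower. Same-numbered libraries did not deviate together (r of -0.10, -0.29 and -0.38). With so few libraries, which differ widely within a group, this cannot show whether the numbers mark a pairing. Of the 59 members between 20 and 50 normalised reads 3 passed (5.08%), against 12.4% of coding genes at that level; the cause was not tested.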

Other observations

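Proteins that make or remove noncoding RNAs were taken from lists chosen with earlier results of these data known. Their counts stand beside the 14.4% of all genes tested that passed in limma, and the 17.3% of autosomal coding genes with a mean of at least 20. Of 18 tested genes of the nuclear RNA exosome and its adaptors, which degrade noncoding RNA, 2 were higher in KPSC and none was lower in limma, against 2 and 0 in edgeR and 2 and 1 in DESeq2, and 3 and 2 at an unadjusted p under 0.05 in limma. Exosc1, a subunit of its cap, had 682, 685 and 731 normalised reads in KPSC, against 460, 424 and 471 in KPC, a log2 fold change of 0.63 (adjusted p = 0.00531 by limma). Of 14 tested snoRNP genes Nop58, a core protein of box C/D snoRNPs with its gene on chromosome 1, was higher. It stood at 2366, 2579 and 2967 in KPSC, against 1547, 1435 and 1425 in KPC (log2 fold change 0.84, adjusted p = 0.00275 by limma). Of 12 paraspeckle proteins, Hnrnph3 was lower, at 467, 488 and 423 in KPSC, against 636, 594 and 607 in KPC (log2 fold change -0.41; adjusted p = 0.0311 by limma), a call lost without any 1 library, with an adjusted p of up to 0.0904. None of 10 microRNA processing genes passed in limma, edgeR or DESeq2, or had an unadjusted p under 0.05 in limma, with log2 fold changes of -0.23 to 0.14.

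By chromosome, the members' median log2 fold change was 0.26 on chromosome 1, where 778 coding genes had 0.38, and -0.58 on chromosome 18, where 325 coding genes had -0.36. On chromosome 3 the medians were -0.61 for 7 members and -0.23 for coding genes, and on chromosome 5 they were -0.22 for 10 members and -0.23 for coding genes. On some other chromosomes the medians parted: they were -0.73 for 7 members and -0.02 for 690 coding genes on chromosome 8, -0.36 for 6 members and 0.03 for coding genes on chromosome 13, and -0.29 for 6 members and 0.13 for coding genes on chromosome 19. Of the 120 members with a coding gene within 1 Mb, 75 (62.5%) had the sign of the median of those genes, as did 61.1% of coding genes. Of the 16 members past the threshold 8 did, against 71.9% of coding genes past it; these differences were not tested.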
